A study of Oryza sativa with 32 samples.

Results

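The sucrose transporters (SUT) and SWEET sugar exporters of rice were followed over a day in flowering panicles. The 9 genes were taken by identifier from a table of 37829 genes: SUT1 (OS03G0170900), SUT2 (OS12G0641400), SUT3 (OS10G0404500), SUT4 (OS02G0827200), SUT5 (OS02G0576600), SWEET4 (OS02G0301100), SWEET11 (OS08G0535200), SWEET14 (OS11G0508600) and SWEET15 (OS02G0513100). The panicles, the flower-bearing heads, came from IR64, an indica rice, grown untreated on a field plot at IRRI in the Philippines in a dry season and cut at 50% flowering. Poly(A) RNA was sequenced in 32 libraries, 4 for each of 8 sampling times. Counted in hours from dawn these were 0 (dawn itself), 3.5, 7, 10.5, 14, 17.5 and 21 h, plus dusk, for which the labels give no hour. All groups share the variety, the field, the stage and the lack of treatment, and differ in the hour alone as far as the labels say. The labels do not tell whether the libraries of a time are separate plants or plots, so the spread behind each p-value may be technical.

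SUT proteins carry sucrose together with protons into cells or out of the vacuole, and in grasses they load the phloem and feed growing grains and pollen. SWEET proteins let sugars pass down their gradient, and members of the family release sucrose or hexoses from maternal tissues toward phloem, anthers and developing seeds. A panicle at flowering holds green bracts, stamens with ripening pollen, pistils and the first fertilised ovaries, so both families can be read there from several tissues at once. In such mixed samples, fewer cells of a type and less RNA per cell cannot be told apart.

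Libraries held between 10.8 and 43.9 M counts (M, mega), the median being 16.8 M. Levels are given as CPM, each count over its library total in mega-counts, scaled with TMM factors, and since no transcript lengths were used, levels are compared between times and not between genes. The 9 floral organ identity genes that mark the panicle were all detected, with a summed level between 1880 and 3490 CPM, led by MADS1 at a median of 832 CPM and MADS7 at 415 CPM. Mature pollen markers, AP65 apart, varied widely, also between libraries of the same hour. The mean log2 CPM of the 5 pollen genes spanned 1.00 to 6.29 over the 32 libraries, a 39.1-fold range, with the pollen receptor kinase gene RUPO between 5.17 and 1230 CPM and AP65, an aspartic protease gene of pollen, between 63.0 and 97.2 CPM. Tapetum markers summed to 5.78 to 80.7 CPM, with TDR, a tapetum transcription factor gene, at a median of 5.88 CPM and UDT1, which acts in early tapetum development, at 3.06 CPM. Endosperm markers summed to 40.3 to 169 CPM, led by the starch enzyme genes AGPL2 at a median of 26.7 CPM and BEIIb at 23.8 CPM, while the storage protein gene GluB1 was at 0 in every library. Green tissue genes summed to 3310 to 22000 CPM, with the Rubisco small subunit gene RBCS3 at a median of 3610 CPM and the Rubisco activase gene RCA at 1440 CPM.

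All 9 transporters had enough counts to be tested. Over the 8 times, SUT2, SUT4 and SWEET14 changed, 3 of 9, and SUT1, SUT3, SUT5, SWEET4, SWEET11 and SWEET15 did not pass the threshold (adjusted p between 0.279 and 0.621; edgeR quasi-likelihood test over 8 means with Benjamini-Hochberg adjustment over 25766 genes, threshold 0.05). Of all genes tested, 42.1% changed, so a share of 3 in 9 lies near the background. The median range between the highest and lowest time mean was 1.10 on the log2 scale for the 9 transporters (the range of SWEET11, which did not pass) and 0.93 for all genes. This range grows with the spread between libraries too. A wave with a 24 h period was called for the same 3 genes of 9, beside 47.4% of all genes. The transporters differed in where their variance lay. For SUT2, 80.6% of the variance of log2 CPM lay between times, against a median of 40.8% over all genes, while for SUT1, SUT3, SUT5, SWEET4, SWEET11 and SWEET15 it was 19.8 to 29.9%. Chance differences between means of 4 libraries also give a share above 0, so a share alone does not show a daily change. The spread between libraries of the same hour (SD of log2 CPM) was 0.19 for SUT4 and 0.26 for SUT2, and 0.81 to 2.21 for SWEET15, SWEET14, SWEET11 and SUT3, against a median of 0.365 over all genes.

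SUT2, a sucrose transporter of the vacuolar membrane, had the clearest daily course. In the morning it was high, with 108, 140, 126 and 73.7 CPM in the 4 dawn libraries, 127, 120, 115 and 89.4 CPM at 3.5 h, and 131, 85.4, 89.3 and 76.3 CPM at 7 h. By 10.5 h it was at 62.0, 59.8, 55.8 and 65.4 CPM, at dusk at 59.8, 44.7, 45.5 and 52.1 CPM, and at 14 h at 49.4, 60.7, 56.0 and 61.2 CPM. It then stood at 76.5, 94.4, 99.6 and 63.5 CPM at 17.5 h and at 137, 120, 99.7 and 111 CPM at 21 h. All 12 libraries from 10.5 h to 14 h lay below all 16 of 21 h, dawn, 3.5 h and 7 h. By mean the order was 21 h (117 ± 15.7 CPM, SD, n = 4), 3.5 h (113 ± 16.3), dawn (112 ± 28.4), 7 h (95.6 ± 24.4), 17.5 h (83.5 ± 16.6), 10.5 h (60.7 ± 4.03), 14 h (56.8 ± 5.48) and dusk (50.5 ± 7.01). Each pair of neighbours in that order overlapped.

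The time means of SUT2 spanned 1.21 on the log2 scale, a 2.31-fold range (edgeR adjusted p = 1.7e-06). The fitted wave had an amplitude of 0.59 (peak against mean, log2) and a peak 0.632 h after dawn (edgeR adjusted p = 3.8e-08). Dusk lay 1.15 ± 0.179 (SE) below dawn on the log2 scale, 2.21-fold (edgeR adjusted p = 2.1e-05). The only step between neighbouring times that passed the threshold was the fall from 7 h to 10.5 h, of 0.65 ± 0.177 on the log2 scale (edgeR adjusted p = 0.0295). Without 7 h replicate 1 the log2 difference was -0.46 and was not called (adjusted p = 0.204). Without 10.5 h replicates 1, 2 or 3 it was as large (-0.67, -0.65 and -0.62) but did not pass either (adjusted p = 0.0670, 0.0786 and 0.0957). The rises from 14 h to 17.5 h (0.55 ± 0.177) and from 17.5 h to 21 h (0.49 ± 0.177) did not pass the threshold, with adjusted p of 0.110 and 0.0881 in edgeR.

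**Figure D1:**
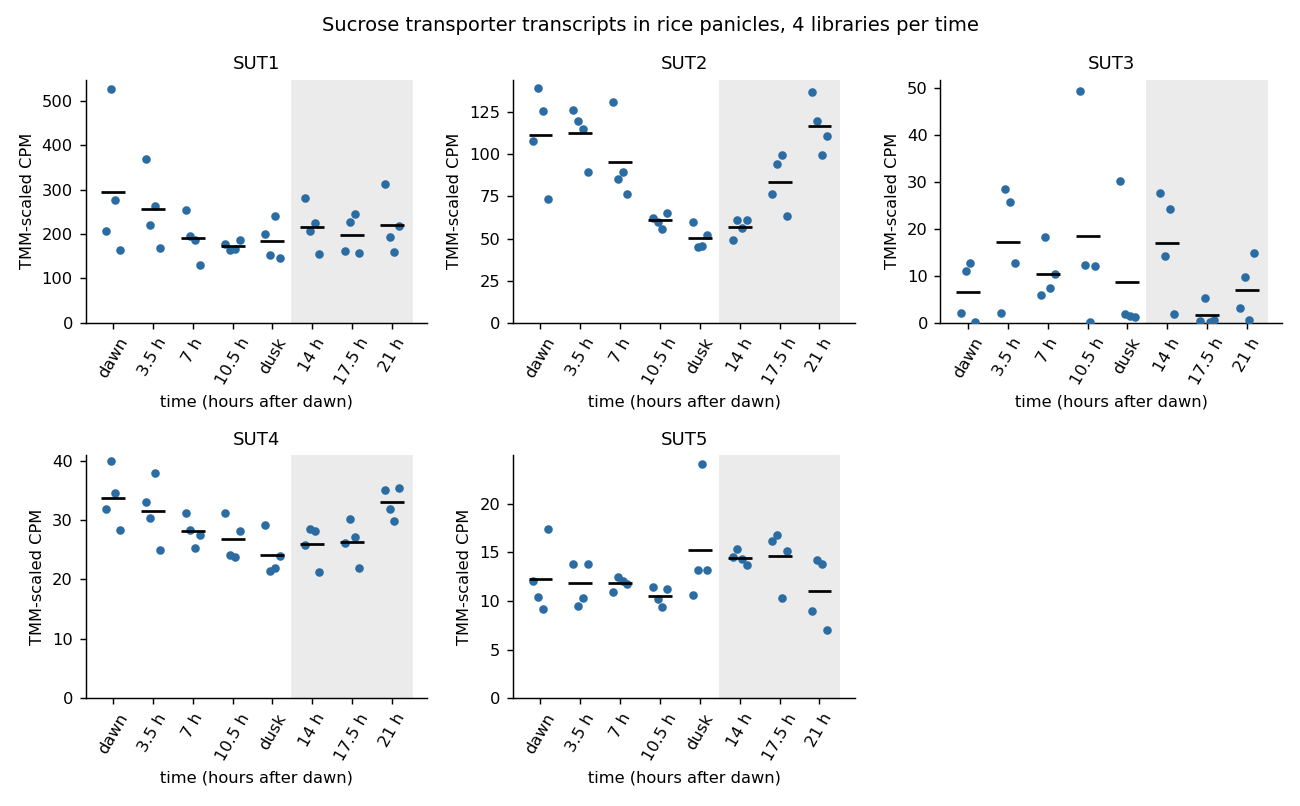
TMM-scaled CPM of the 5 sucrose transporter genes (vertical axes, each from 0) against sampling time (horizontal axes, dawn to 21 h after dawn). Each point is a library, black bars are means of 4 libraries, and grey marks 14 to 21 h. SUT2 and SUT4 are low around dusk and high from 21 h to 3.5 h, while the points of SUT3 scatter at most times from near 0 upward.

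SUT4, a sucrose transporter of the same family, followed SUT2 with a smaller swing. Its 4 libraries held 31.9, 39.9, 34.5 and 28.4 CPM at dawn, followed by 33.0, 30.3, 37.9 and 25.0 CPM at 3.5 h and by 31.2, 28.4, 25.3 and 27.5 CPM at 7 h. They held 31.2, 24.1, 23.9 and 28.1 CPM at 10.5 h, 29.2, 21.5, 22.0 and 24.0 CPM at dusk, and 25.8, 28.6, 28.2 and 21.3 CPM at 14 h. At 17.5 h the values were 26.1, 30.2, 27.1 and 21.9 CPM, and at 21 h 35.1, 31.9, 29.9 and 35.3 CPM. The 21 h libraries all lay above the dusk libraries, whereas dawn and dusk overlapped in 1 library each, and in the order from dawn (33.7 ± 4.87 CPM, SD, n = 4) to dusk (24.2 ± 3.52) all neighbours overlapped. The range of time means was 0.48 on the log2 scale, 1.39-fold (edgeR adjusted p = 0.0241), and it lost the call without dusk replicate 2 (adjusted p = 0.0502). The wave had an amplitude of 0.21 and a peak 0.543 h after dawn (edgeR adjusted p = 6.2e-04).

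Dusk was lower than dawn for SUT4 by 0.48 ± 0.135 on the log2 scale (edgeR adjusted p = 0.0106). With SUT2 this makes 2 of 9 transporters that passed between dusk and dawn, both lower at dusk. Of all genes 22.1% passed in that contrast, 10.6% lower and 11.5% higher at dusk.

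SUT1, which works in long-distance sucrose transport and is needed for normal pollen function in rice, was highest on average at dawn (294 ± 163 CPM, SD, n = 4) and lowest at 10.5 h (173 ± 10.2). The dawn libraries ranged from 165 to 528 CPM and those of 10.5 h from 164 to 186 CPM, so the groups overlapped. Neither the 8 times (edgeR adjusted p = 0.279) nor the 24 h wave (amplitude 0.26, peak 0.0696 h after dawn, adjusted p = 0.0605) passed the threshold, though the wave did pass in 6 of the 32 fits that left out a single library. SUT5, a sucrose transporter with low counts here (103 to 634 per library), had means between 10.6 ± 0.944 CPM at 10.5 h and 15.3 ± 6.01 CPM at dusk, where a single library at 24.1 CPM stood above the others (10.6 to 13.2 CPM). Its differences between times were not called (edgeR adjusted p = 0.286).

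SUT3, known in rice for its activity in pollen, differed more between libraries of the same hour than any other of the 9 genes. The 4 libraries held 2.07, 10.9, 12.7 and 0.0771 CPM at dawn, followed by 2.13, 28.4, 25.8 and 12.7 CPM at 3.5 h and by 5.92, 18.2, 7.31 and 10.5 CPM at 7 h. At 10.5 h they held 49.4, 12.2, 0.0834 and 12.1 CPM, at dusk 30.3, 1.76, 1.40 and 1.27 CPM, and at 14 h 27.6, 14.2, 24.2 and 1.79 CPM. The night ended with 0.450, 5.29, 0.156 and 0.586 CPM at 17.5 h and 3.02, 9.81, 0.475 and 14.9 CPM at 21 h. The lowest 3 values stand for 1 count (dawn replicate 4) and 2 counts (10.5 h replicate 3 and 17.5 h replicate 3), so their level is set by counting error, and the highest for 838 counts (10.5 h replicate 1). Neighbouring times overlapped throughout the order from 10.5 h (18.4 ± 21.4 CPM, SD, n = 4) to 17.5 h (1.62 ± 2.46), and the 8 times did not pass (edgeR adjusted p = 0.374).

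The SUT3 values followed the pollen markers of the same libraries. At 7 of 8 times the library with the highest pollen marker mean also had the highest SUT3 level, and at 5 of 8 times the lowest went with the lowest. In a fit with 1 mean per time, SUT3 rose by 1.57 ± 0.105 (SE) on the log2 scale for each log2 unit of the pollen marker mean (edgeR adjusted p = 9.7e-13), and the slope lay between 1.51 and 1.65 when any single library was left out. With the tapetum list in place of the pollen list the slope was 2.37 (adjusted p = 3.8e-06), and with limma on log2(CPM + 0.5) it was 1.18. The pollen list holds no transporter, and its mean is measured in the same libraries as the transporters. Its 5 symbols were matched to identifiers from general knowledge, and none of these matches could be checked. Within the list, AP65 had a slope of 0.056 ± 0.0179 on that mean, and the other markers had slopes of 1.20 to 1.40. Some markers of other tissues moved with the list mean too. Their counts are to be read against all genes, of which 43.8% passed, 21.0% upward and 22.8% downward. Of 7 tapetum genes 3 passed upward (TDR by 1.29 ± 0.0871, RAFTIN1 by 1.5 ± 0.167 and C6 by 1.15 ± 0.221 per log2 unit) and none downward. Of 9 floral organ identity genes 2 passed upward and 3 downward (all 9 between -0.30 and 0.55). Of 4 green tissue genes 2 passed upward, RCA by 0.16 and RBCS3 by 0.20. Of 5 endosperm genes tested 1 passed, BEIIb upward by 0.28 ± 0.111 (edgeR adjusted p = 0.0425). What part each tissue has in the slopes of SUT3 and SWEET11 was not tested.

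**Figure D2:**
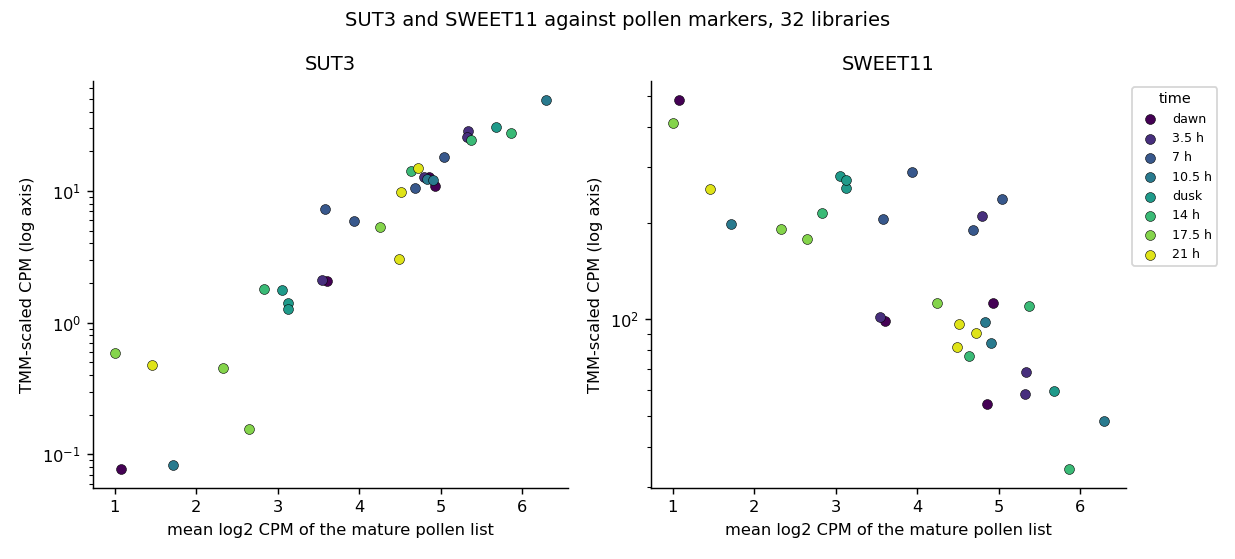
TMM-scaled CPM of SUT3 (left) and SWEET11 (right), on log axes, against the mean log2 CPM of 5 mature pollen markers in the same library (horizontal axes). Each of the 32 points is a library, coloured by time. SUT3 climbs from under 1 CPM in the pollen-poor libraries to 49.4 CPM in the library with the highest marker mean (6.29), and SWEET11 falls from 487 CPM to 34.0 CPM in the opposite direction.

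SWEET11, a sucrose exporter of rice that serves grain filling and pollen development, went the other way. Its libraries held 98.7, 113, 54.3 and 487 CPM at dawn, followed by 102, 68.6, 58.3 and 210 CPM at 3.5 h and by 289, 238, 206 and 190 CPM at 7 h. They held 48.1, 98.5, 199 and 84.6 CPM at 10.5 h, 59.8, 280, 257 and 273 CPM at dusk, and 34.0, 76.8, 111 and 215 CPM at 14 h. At 17.5 h they held 192, 113, 178 and 412 CPM and at 21 h 82.1, 96.9, 256 and 90.9 CPM. The highest value, at dawn replicate 4, came from the library in which SUT3 had its single count. Neighbouring times overlapped throughout the order from 7 h (231 ± 43.4 CPM, SD, n = 4) to 10.5 h (108 ± 64.5), and the 8 times did not pass (edgeR adjusted p = 0.388).

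Within times, SWEET11 fell by 0.56 on the log2 scale, with an SE of 0.0665, for each log2 unit of the pollen marker mean (edgeR adjusted p = 1.1e-07). It was highest in the library with the lowest marker mean at 6 of 8 times, and lowest in the library with the highest marker mean at 4 of 8. Leaving out any single library kept the slope between -0.60 and -0.52, and with the tapetum list in place of the pollen list it was -0.95 (adjusted p = 3.6e-05).

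Of the 9 transporters, 5 passed for the slope on pollen markers, 4 upward and 1 downward. Among all genes 43.8% passed, 21.0% upward and 22.8% downward, so that the count is near the background. The median slope was 0.13 for the transporters (the slope of SUT1, which did not pass) and -0.0022 for all genes. That difference was not tested. SUT4 rose by 0.094 ± 0.0214 per log2 unit (edgeR adjusted p = 7.8e-04), but with libraries scaled by their totals alone its slope was 0.029 (adjusted p = 0.249). SWEET4 rose by 0.18 ± 0.0583 (adjusted p = 0.0162) and SWEET14 by 0.33 ± 0.106 (adjusted p = 0.0145, both edgeR). Both of these calls were lost without dawn replicate 4 (adjusted p = 0.0953 and 0.0671) and without 21 h replicate 3 (0.0782 and 0.0567), and that of SWEET4 also with libraries scaled by their totals alone (0.0782). The slopes of SUT1 (0.13 ± 0.0561, adjusted p = 0.0590), SUT2 (0.080 ± 0.0335, 0.0536), SUT5 (-0.085 ± 0.045, 0.130) and SWEET15 (0.17 ± 0.109, 0.208) did not pass in edgeR. SUT1 passed in 8 and SUT2 in 10 of the 32 fits without a single library, and SWEET15 reached an adjusted p of 0.00499 without dawn replicate 4. With libraries scaled by their totals alone SUT5 passed, with a slope of -0.15 (adjusted p = 0.0109).

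**Figure D3:**
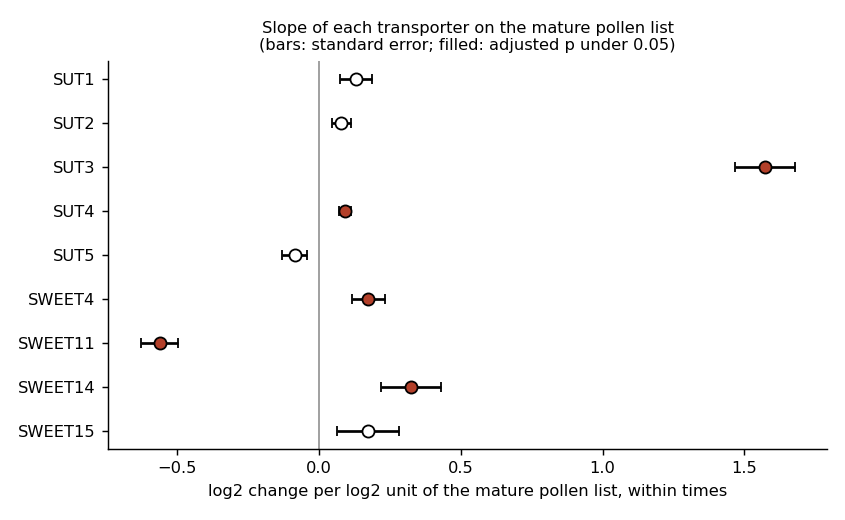
Slope of each transporter on the mature pollen markers within times (horizontal axis, log2 change per log2 unit of the marker mean, with 0 marked), 1 row per gene. Bars are standard errors and filled points have an adjusted p under 0.05. SUT3 at 1.57 and SWEET11 at -0.56 stand away from the other 7 genes, which lie between -0.085 and 0.33.

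The pollen marker mean, centred on its time, was then added to the model of time. In that fit 5 of 9 transporters passed over the 8 times, beside 60.2% of all genes. The centred term takes up differences between libraries of the same hour only, so differences in pollen markers between hours were not adjusted for. It narrows the spread behind the p-values, while pollen differences stay in the time means. For genes that follow the pollen markers these p-values are therefore too small. Calls of such genes in this fit do not by themselves show a change with the hour. SUT3 (edgeR adjusted p = 6.1e-07) and SWEET11 (adjusted p = 0.00274) joined SUT2, SUT4 and SWEET14. In that model SUT3 was lower in the dark samples than in the light ones by 1.5 ± 0.252 on the log2 scale (edgeR adjusted p = 3.1e-05, beside 36.3% of all genes called), and it fell by 3.85 ± 0.496 from 14 h to 17.5 h (adjusted p = 1.7e-06, beside 14.0% called). Without the pollen term these differences were -1.39 ± 0.734 (adjusted p = 0.169) and -3.48 ± 1.39 (adjusted p = 0.175). At 17.5 h the pollen marker mean itself was lowest, at 2.56 ± 1.33 log2 CPM (SD, n = 4), against 4.67 ± 1.33 at 14 h and 3.79 ± 1.56 at 21 h. None of the 5 pollen markers passed the test over the 8 times in edgeR (lowest unadjusted p 0.0559, adjusted 0.108).

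SWEET14, a sucrose exporter that Xanthomonas oryzae switches on during infection and that also acts in the rice grain, had a rise in the middle of the day. Its libraries held 10.2, 16.3, 17.9 and 2.47 CPM at dawn, followed by 5.02, 6.23, 10.4 and 3.15 CPM at 3.5 h and by 160, 27.2, 36.6 and 34.9 CPM at 7 h. They held 23.9, 27.1, 22.3 and 16.2 CPM at 10.5 h, 33.3, 12.2, 15.0 and 19.2 CPM at dusk, and 18.7, 18.2, 19.5 and 10.9 CPM at 14 h. At 17.5 h they held 6.84, 13.8, 15.4 and 6.55 CPM and at 21 h 24.8, 24.0, 3.72 and 16.4 CPM. Every 7 h library lay above every library of dawn, 3.5 h, 10.5 h, 14 h, 17.5 h and 21 h, at 10.5 h by a margin of 27.2 against 27.1 CPM, while a single dusk library (33.3 CPM) exceeded the lowest of 7 h.

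From 3.5 h to 7 h SWEET14 rose by 3.37 ± 0.613 (SE) on the log2 scale, 10.3-fold (edgeR adjusted p = 7.1e-04). It was the only one of the 9 transporters that passed in that step, in which 8.62% of all genes passed and 5.29% of all genes rose. Replicate 1 of 7 h, at 160 CPM, was far above the other 3 libraries of that hour (27.2 to 36.6 CPM), and without it the rise was 2.40 (adjusted p = 0.00594). The change over 8 times was called with and without that library (edgeR adjusted p = 5.5e-04 and 0.0156). The 24 h wave (amplitude 0.83, peak 7.83 h after dawn, edgeR adjusted p = 0.0207) was called with it and not without it, where the amplitude was 0.47 (adjusted p = 0.124). The time means ran from 64.6 ± 63.5 CPM at 7 h (SD, n = 4) over 22.4 ± 4.58 at 10.5 h, 19.9 ± 9.38 at dusk, 17.2 ± 9.78 at 21 h, 16.8 ± 3.98 at 14 h, 11.7 ± 7.02 at dawn and 10.7 ± 4.61 at 17.5 h to 6.19 ± 3.05 at 3.5 h, and neighbours overlapped from 10.5 h downward.

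**Figure D4:**
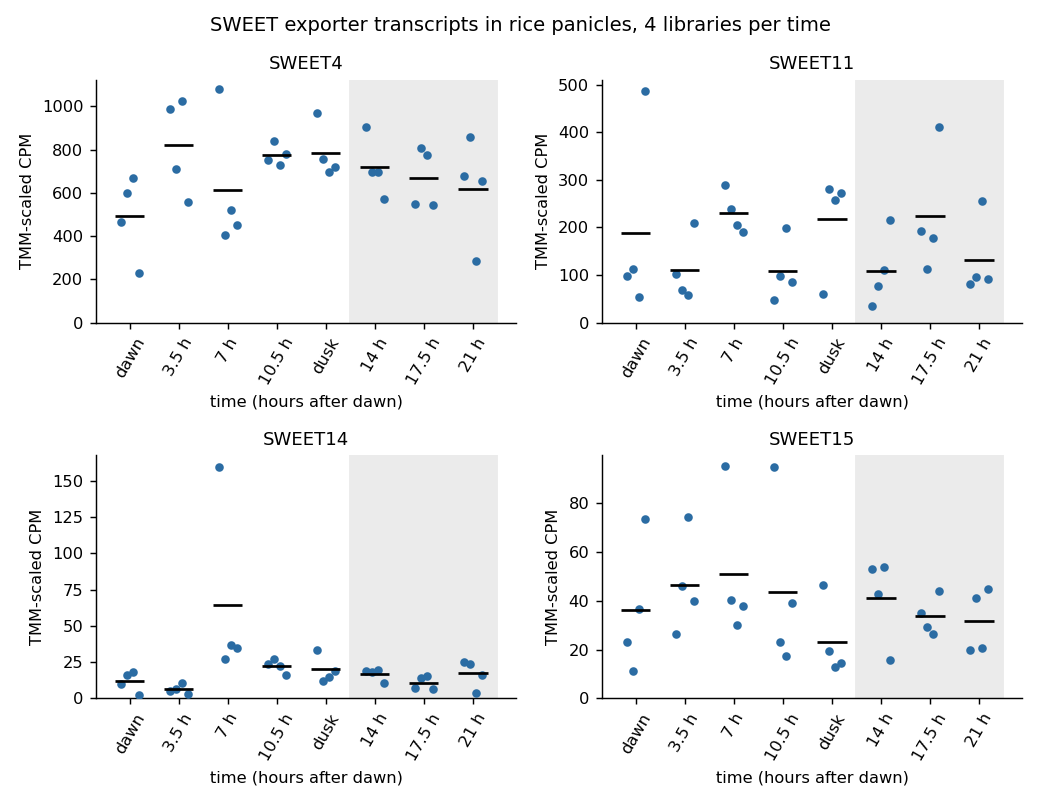
TMM-scaled CPM of the 4 SWEET genes (vertical axes, each from 0) against sampling time (horizontal axes, dawn to 21 h after dawn). Each point is a library, black bars are means of 4 libraries, and grey marks 14 to 21 h. The 7 h libraries of SWEET14 stand above its other hours, except that a dusk library at 33.3 CPM exceeds the lowest of them. The highest SWEET14 library of 7 h is at 160 CPM, and SWEET11 has single libraries far from the others at dawn, dusk and 21 h.

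SWEET4, a hexose transporter that works in seed filling, had its lowest mean at dawn (491 ± 193 CPM, SD, n = 4) and its highest at 3.5 h (820 ± 225 CPM). The dawn libraries held 467, 600, 668 and 231 CPM and those of 3.5 h 987, 711, 1025 and 557 CPM, so the groups overlapped. The 8 times did not pass (edgeR adjusted p = 0.441), and neither did dusk against dawn (0.68 ± 0.315 on the log2 scale, adjusted p = 0.131). With libraries scaled by their totals alone the dusk to dawn difference was 0.83 (adjusted p = 0.0301). At 10.5 h the 4 libraries lay close together, at 728 to 840 CPM.

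SWEET15, which works with SWEET11 in rice grain filling, had means from 23.3 ± 15.7 CPM at dusk to 50.9 ± 30.0 CPM at 7 h. At 7 h its libraries held 95.5, 40.5, 30.0 and 37.7 CPM and at dusk 46.4, 19.6, 12.7 and 14.5 CPM, which overlap. It had the smallest share of variance between times of the 9 genes, 19.8%, and the 8 times did not pass (edgeR adjusted p = 0.621).

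SWEET4, SWEET14 and SWEET15 all had their highest value of any library in replicate 1 of 7 h, at 1080, 160 and 95.5 CPM. That library had 16.7 M counts, a correlation of 0.975 with the other libraries of its hour and a pollen marker mean of 3.94. SWEET11 (289 CPM), SUT1 (253 CPM), SUT2 (131 CPM) and SUT4 (31.2 CPM) were also highest of their hour in it. SUT3 (5.92 CPM) and SUT5 (10.95 CPM) were lowest of their hour there.

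No transporter passed between night (14, 17.5 and 21 h) and day (3.5, 7 and 10.5 h), where 26.4% of all genes passed in edgeR. None of the 9 had an unadjusted p under 0.05 there, and DESeq2 and limma called none either. For SUT2 that contrast was -0.079 ± 0.102 on the log2 scale, for SUT4 -0.024 ± 0.078, and for SWEET14 -0.52 ± 0.326. With libraries scaled by their totals alone, the first 2 of these were 0.037 and 0.093. SUT2 and SUT4 were high both late at night and early by day, and low both late by day and early at night, so that each side of the contrast held high and low hours.

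Step by step through the day, 1 transporter of 9 passed from 3.5 h to 7 h (SWEET14) and 1 from 7 h to 10.5 h (SUT2), where 4.15% of all genes passed and 2.34% of all genes fell. In the other 6 steps none passed in edgeR. The shares of all genes there were 11.5% from dawn to 3.5 h, 0.186% from 10.5 h to dusk, 0.625% from dusk to 14 h, 1.37% from 14 h to 17.5 h, 8.57% from 17.5 h to 21 h and 0% from 21 h to dawn. At an unadjusted p under 0.05 the number of transporters in these steps was 1, 1, 0, 2, 2 and 0. DESeq2 called none in any of the 6 and limma called 1, from 14 h to 17.5 h. For the closing step from 21 h to dawn, 0 genes of the whole table were called by edgeR and by limma, 27 by DESeq2, and 1778 had an unadjusted p under 0.05.

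No transporter slope on the endosperm markers was called. With 5 of them tested, 0 of 9 transporters and 0.109% of all genes passed for the slope on their mean in edgeR, and 2 of 9 had an unadjusted p under 0.05 (DESeq2 and limma were not run for this slope). These were SWEET15, with a slope of 0.99 ± 0.313 (unadjusted p = 0.00405, adjusted p = 0.196), and SUT2, with -0.37 ± 0.103 (unadjusted p = 0.00157, adjusted p = 0.144). Standard errors were wider than for the pollen slopes, with SUT3 at 1.23 ± 1.12 and SWEET11 at 0.74 ± 0.395 (edgeR adjusted p = 0.747 and 0.484). Of the 5 endosperm markers tested, 2 passed for the slope on their own mean.

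Other SWEET genes of rice were also read. Of 13 listed, SWEET7a and SWEET12 were at 0 in every library, and 6 of the 11 tested changed over the 8 times (edgeR), beside the 42.1% of all genes. SWEET2b (OS01G0700100) peaked at 21 h (114 ± 31.0 CPM, SD, n = 4), was still high at dawn (83.1 ± 27.2) and had its trough at dusk (0.285 ± 0.0909 CPM; edgeR adjusted p = 6.8e-18). SWEET1a (OS01G0881300) had the opposite phase, with 203 ± 65.0 CPM at dusk and 34.7 ± 4.83 CPM at dawn (adjusted p = 4.0e-08). SWEET13 (OS12G0476200), a close relative of SWEET14, was highest at 21 h (91.8 ± 19.9 CPM) and lowest at 10.5 h (32.2 ± 5.22 CPM; adjusted p = 1.7e-05). The median range over time was 2.22 on the log2 scale for these 11 genes, against 1.10 for the 9 transporters and 0.93 for all genes. Such a range grows with the spread between libraries too. The 2.22 is that of SWEET6a, which did not pass over the 8 times (edgeR adjusted p = 0.175), and the 1.10 that of SWEET11, which did not pass either. The medians therefore do not compare daily swings. For the slope on the pollen markers 7 of 11 passed, all upward, beside 43.8% of all genes (21.0% upward). The 11 slopes ran from -0.037 to 1.22, with a median of 0.30 and SWEET1a at 0.14 ± 0.0496 (edgeR adjusted p = 0.0235).

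**Figure D5:**
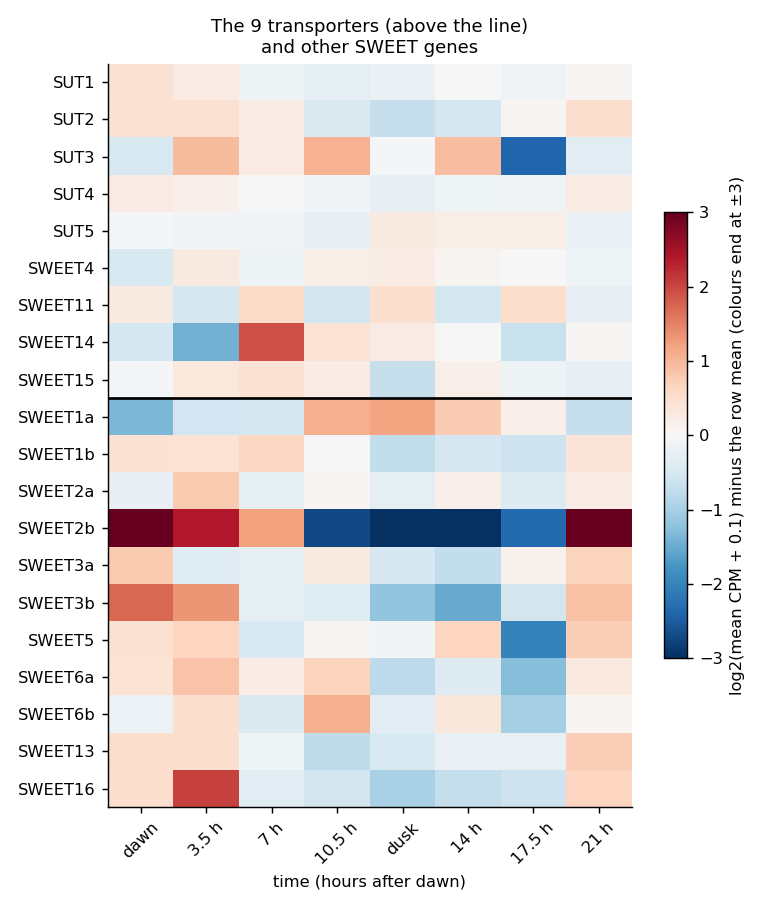
Time means of the 9 transporters (above the line) and 11 other SWEET genes (below it), as log2(mean CPM + 0.1) minus the mean of the row, with colours that end at 3 in either direction. Columns are the 8 times. SWEET2b changes most, SUT2 and SUT4 share its low hours around dusk in paler colours, and SWEET14 peaks at 7 h.

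Genes that make, cleave or move sugars beside these families were also followed, and their counts over time are to be read against the 42.1% of all genes that changed. Of 7 other sugar transporters, 4 changed over time, among them TMT2, a sugar transporter of the vacuolar membrane, highest at 10.5 h (192 ± 27.0 CPM) and lowest at dawn (68.7 ± 16.5 CPM; edgeR adjusted p = 7.2e-08). The monosaccharide transporter MST3 was highest at dusk (65.1 ± 17.1 CPM) and lowest at dawn (21.5 ± 11.6 CPM; adjusted p = 5.7e-04), and MST6 was highest at 17.5 h (91.8 ± 45 CPM) and lowest at 14 h (37.5 ± 13.2 CPM; adjusted p = 0.00788). Of 8 sucrose-cleaving enzyme genes tested, 4 changed, with the cell wall invertase CIN1, the sucrose synthase SUS4 and the vacuolar invertase INV3 in front (edgeR adjusted p of 6.4e-06, 9.3e-06 and 3.2e-04). CIN1 was highest at 7 h (346 ± 71.9 CPM) and lowest at 14 h (153 ± 24.5 CPM).

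INV3 was highest at 21 h (1538 ± 843 CPM) and lowest at dusk (163 ± 182 CPM), and its slope on the pollen markers was 0.66 ± 0.0812 (edgeR adjusted p = 2.1e-07). SPS2 also passed upward (0.061 ± 0.0177, adjusted p = 0.00617), and MST3 passed downward (-0.23 ± 0.0547, adjusted p = 0.00117). Of the 7 other sugar transporters 2 passed upward and 2 downward, beside 43.8% of all genes, with slopes from -0.25 to 1.29. Of the sucrose phosphate synthase genes, which make sucrose, SPS2 (102 ± 7.92 CPM at dawn, 73.4 ± 7.39 at dusk) and SPS8 (216 ± 9.52 CPM at 21 h, 147 ± 23.7 at dusk) changed, 2 of 3 tested (edgeR adjusted p = 3.9e-04 and 0.00349), and SPS11 did not pass (0.422). Of 4 genes listed as reported regulators of sugar transport or grain filling in rice, the 2 that could be tested, DOF11 and bHLH144, did not pass over the 8 times (edgeR adjusted p = 0.882 and 0.425). The slope of bHLH144 on the pollen markers was -1.41 ± 0.249 (edgeR adjusted p = 4.5e-05), at time means of at most 1.18 CPM.

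Likeness to SUT2, SUT4 and SWEET14 was measured as Pearson's r over the 8 time means of log2 CPM, among 69 genes of the sugar and marker lists, as a description of means from the same libraries. SUT2 was most like SWEET2b (r = 0.938) and RCA (0.936), values that 287 and 306 of 25765 genes reach. SUT4 was most like SWEET2b (0.965, reached by 81 genes) and INV3 (0.957, by 154). For SWEET14 the nearest were the tapetum gene CYP703A3 (0.702) and TMT2 (0.694), values reached by 990 and 1095 genes.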

How the data were processed

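Poly(A) RNA of 32 panicle samples was sequenced with strand-marking libraries, per the labels' protocols. The genome build was IRGSP-1.0, a japonica assembly, and the tools were HTSeq 0.6.0 and TopHat2 2, per the submitters' processing notes. The strand setting is not given in the sources used here, so reads from overlapping antisense genes may not be told apart, and reads of closely related SWEET genes can be split or lost. The authors deposited whole-number counts per gene and CPM values. The deposited CPM equalled each count divided by its library total (largest difference 5e-07) and entered only the limma alternative.

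Groups, replicate numbers and hours came from the labels, and dusk, which has no hour there, was set at 12 h in the wave model. Counts were tested with edgeR 4.0.16 in R 4.3.3 (TMM factors, filterByExpr, quasi-likelihood test, Benjamini-Hochberg adjustment over 25766 genes, threshold 0.05), on all 32 libraries with 1 mean per time, or with a cosine and a sine of 24 h. Slopes were fitted on a list's mean log2 CPM (prior count 2), centred on its time. SEs of contrasts and slopes are the log2 value over the square root of F. Alternatives were DESeq2 1.42.0, its size factors, library totals, no filter, limma 3.58.1 on log2(CPM + 0.5), the replicate number as a block, the pollen list as a covariate, the tapetum list in its place, dusk at 11 or 13 h, and fits without 1 library. A fit without the 3 libraries least like their hour was chosen after seeing the data. The tests were tried on simulated counts. Promoter motifs, named in the plan, were not analysed here.

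The transporters and the gene lists were chosen with earlier results of these data known. Named beyond the 9 are up to 3 genes per sugar list, taken by lowest adjusted p over the 8 times, the 2 most abundant of each marker list, and for each transporter that changed the 2 listed genes most like it. The files pair no symbols with identifiers. Of 85 pairs written from general knowledge, 52 lay on the chromosome and at the rank (within 10% of its genes) that a RefSeq gene table (ASM3414082v1) gives. Another 29 were not in that table and stayed unchecked, and 4 lay elsewhere and were dropped. Unchecked were SUT3, all 5 mature pollen markers, and RISBZ1, BEIIb, SSIIa and AGPL2 of the 5 endosperm markers tested, among others. Libraries of an hour differed beyond sampling noise (mean chi-square per gene 10.7 to 259), so none was merged.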

Additional observations from a re-analysis of the deposited data

Results flagged for a closer look

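In each of the 72 sets of 4 libraries (9 genes at 8 times), the highest or lowest library was compared with its neighbour by Dixon's ratio, the gap divided by the range, and marked above the ratio's critical value for 4 libraries. Chance alone marks about 1 set in 20 where values are normally distributed, and 9 of the 72 sets were marked. The CPM were not log-transformed and the genes share libraries, so that rate need not hold here and the 9 are a description. For SUT3, dusk replicate 1 stood at 30.3 CPM with the next library at 1.76 CPM, and 17.5 h replicate 2 at 5.29 CPM with the next at 0.586 CPM. These 2 libraries had pollen marker means of 5.67 and 4.25 log2 CPM, the highest of their hours. For SWEET11, dawn replicate 4 stood at 487 CPM (next 113) and 21 h replicate 3 at 256 CPM (next 96.9), with the lowest pollen marker means of their hours (1.07 and 1.46). Dusk replicate 1, with the highest marker mean at dusk, had the lowest SWEET11 value of that hour, at 59.8 CPM (next 257).

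At 7 h, replicate 1 was marked for SWEET4 (1080 CPM, next 520), SWEET14 (160 CPM, next 36.6) and SWEET15 (95.5 CPM, next 40.5), and its pollen marker mean of 3.94 lay within the range of its hour (3.57 to 5.03). For SWEET14, 14 h replicate 4 was low, at 10.9 CPM (next 18.2), and had the lowest pollen marker mean of its hour (2.83). The part that these marker levels have in the single values was not tested.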

How the results depend on the processing

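The calls of SUT2 over the 8 times, in the 24 h wave and between dusk and dawn, those of SWEET14 over the 8 times and from 3.5 to 7 h, of SUT4 in the wave and between dusk and dawn, and the slopes of SUT3 and SWEET11 on the pollen markers held under every alternative run. No call of a transporter changed with DESeq2's size factors or without the filter on low counts. With the pollen list, centred on its time, as a covariate, 5 transporters were called over time, beside 60.2% of all genes. In the wave 5 were called, beside 54.9%, and between night and day 1, beside 36.3%. As said above, p-values of this fit are too small for genes that follow the pollen markers. In the steps that model called 2 transporters from dawn to 3.5 h (5399 genes in all), 2 from 3.5 to 7 h (4047 genes) and 2 from 7 to 10.5 h (1556 genes). It called 1 from dusk to 14 h (1114 genes), 3 from 14 to 17.5 h (3609 genes) and 3 from 17.5 to 21 h (5410 genes). From 10.5 h to dusk that model called 405 genes. From 10.5 h to dusk, where 48 genes passed, 27 did with library totals alone, 27 with limma, 328 with DESeq2, 76 with the replicate block and 27 without the 3 libraries least like their hour. DESeq2 called 327 genes from dusk to 14 h, 1284 from 14 to 17.5 h and 27 from 21 h to dawn. Library totals alone and limma each called 1 transporter from 14 to 17.5 h. Without the 3 libraries (dawn replicate 4, dusk replicate 3 and 21 h replicate 3) the counts were 560 genes from 14 to 17.5 h, 4473 genes and 1 transporter from 17.5 to 21 h and 7 genes from 21 h to dawn, and the pollen slopes of SWEET4 (0.072, adjusted p = 0.415) and SWEET14 (0.17, adjusted p = 0.265) lost their calls.

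Replicate numbers did not pair the libraries: 55 of 112 same-numbered pairs had correlated deviations over 0.1 (median 0.0933, from -0.758 to 0.723; other pairs -0.0145). With the replicate block, 3 transporters in place of 5 passed for the pollen slope, with SWEET4 at an adjusted p of 0.0650 and SWEET14 at 0.0525, SUT1 passed for the wave (0.0448), and 6 genes in place of 28 passed for the endosperm slope. The night to day difference of SWEET11 was -0.036 with the block, -0.045 with the pollen list and -0.088 without the 3 libraries, and no other sign turned with the block.

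In that contrast SUT2 was at 0.037 with library totals and 0.038 with limma, and SUT4 at 0.093, 0.090 and, without the 3 libraries, 0.0037. Between dusk and dawn SWEET15 was at 0.15 without the 3 libraries. None of these passed a test, and the cause was not tested. Leaving out 1 library at a time gave ranges across 0 between night and day for SUT1 (-0.013 to 0.13), SUT4 (-0.058 to 0.022), SWEET4 (-0.20 to 0.0088) and SWEET11 (-0.10 to 0.26), and between dusk and dawn for SUT3 (-2.10 to 1.03) and SWEET11 (-0.099 to 1.30). Counts of genes then ranged from 1970 to 3587 (dawn to 3.5 h), 1166 to 2665 (to 7 h), 13 to 244 (10.5 h to dusk), 82 to 207 (to 14 h), 100 to 512 (to 17.5 h), 1412 to 3385 (to 21 h), 0 to 33 (to dawn) and 9 to 81 (endosperm slope). Counts of transporters ranged from 0 to 1 (7 to 10.5 h, and 17.5 to 21 h) and 3 to 7 (pollen slope). SUT1 passed for the wave without dawn replicate 4, 3.5 h replicates 2 and 4, dusk replicate 3, 14 h replicate 1 or 21 h replicate 3 (adjusted p 0.0248 to 0.0441), and between dusk and dawn without dawn replicate 4 (0.0301). On the pollen markers it passed without 3.5 h replicates 1, 2 or 4, 7 h replicates 1 or 4, 10.5 h replicates 1 or 3, or dusk replicate 3 (0.00968 to 0.0451). SUT2 did so without any 3.5 h library, 7 h replicates 1, 2 or 4, 10.5 h replicate 1, or 14 h replicates 1 or 4 (0.0181 to 0.0470), and SUT5 without 10.5 h replicate 3 (0.0443). Further calls gained were those of SUT5 on the pollen markers with limma (0.0101), SWEET15 there without the 3 libraries (0.0135) and on the tapetum list (0.00721, where SWEET14 was at 0.0742), SUT1 in the wave with DESeq2 (0.0382), the pollen list (0.0442) and without the 3 libraries (0.00760) and between dusk and dawn without the 3 (0.0178), and SWEET4 in the wave with limma (0.0341) and between dusk and dawn with limma (0.0193) and the pollen list (0.0431). SUT4 had no call on the pollen markers with limma (0.250). For SUT3, 3 libraries held 1 or 2 counts, under the floor of 3, so its level there is uncertain.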
